A study of Mus musculus with 20 samples.

Results

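The genes described here are 39 type 1 interferon-stimulated genes, genes known to be switched on by the type 1 interferons alpha and beta. They were chosen by name, with earlier results of these data known. Shares of members beside shares of all genes are therefore a description and no independent test. By Ensembl identifier, 39 of 39 were found among the 19887 genes of the table. All 39 had enough counts to be tested, together with 15348 genes in all, and the lowest count of any member in any mouse was 23. The members were grouped by what their products do into 9 roles.

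RNA was measured by RNASeq in sections of cecum from 20 C57BL/6 mice, 5 on each of 4 diets. All mice were placed at weaning, at 3 weeks of age per the labels, on the Total Western Diet (TWD), a rodent diet modelled on American nutrient intake, and ate it for 6 weeks. They were then given TWD with 0, 2, 5, or 10% w/w raw potato starch (RPS), a resistant starch that is fermented in the large intestine, for another 3 weeks. The 0% RPS mice, which stayed on the TWD, are the control group, and within a diet the mice are named mouse 1 to mouse 5. Sections of whole tissue were used, so that fewer cells of a type and less RNA per cell cannot be told apart. The labels give no cage, litter, or batch. The p-values set the difference between diets against the spread between mice within diets, which need not hold differences between cages or litters. Total counts per mouse were between 14967798 and 42687283, TMM scaling factors between 0.916 and 1.07, and the median share of mitochondrial counts per diet between 9.26 and 10.0%. Defining markers of epithelium, among them Epcam at 1790 ± 232 CPM (read counts scaled to the library size, mean ± SD) in the 0% RPS mice, were high in this tissue. No gene of the cell type lists was at 0 in all mice, and the plasmacytoid dendritic cell marker Cox6a2 had counts in 1 mouse and the neutrophil markers S100a8, S100a9, and Cxcr2 in 11, 14, and 12 mice.

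Type 1 interferons act through the receptor Ifnar1/Ifnar2, the kinases Jak1 and Tyk2, and a complex that holds Stat2 and Irf9 and binds an interferon-stimulated response element (ISRE) near the start of its target genes. In the gut, low interferon signalling in the absence of infection is known to depend in part on the microbiota and keeps antiviral genes at a basal level. Many products of these genes sense viral nucleic acid or block the translation, replication, or release of viruses. Others, such as Irf7 and Stat2, are parts of the pathway itself.

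RefSeq promoters (GRCm38.p6, 250 bases before to 50 after the start) were given for 29 members. The ISRE was searched on both strands as GAAA, any 2 bases, and GAAA, so that a match on the opposite strand reads TTTC, any 2 bases, and TTTC, and matches may overlap. It was found in 13 of the 29 (44.8%), and in 3.99% of the 27025 genes with a promoter in the RefSeq table. The GAS element, a motif better known from interferon gamma responses, searched as TTC, any 3 bases, and GAA, which reads the same on both strands, was found in 4 of the 29 (13.8%) and in 9.55% of all genes. The last 160 bases before the start are shown for 6 members with matches, in capitals, chosen to cover the ISG15, IFIT, OAS, sensor, and effector groups, and for 2 of the genes with the clearest change in the diets, which had none. Mov10 has 2 starts in the table, and the one farther downstream is shown.
Isg15, chr4:156200819-156200978, minus strand: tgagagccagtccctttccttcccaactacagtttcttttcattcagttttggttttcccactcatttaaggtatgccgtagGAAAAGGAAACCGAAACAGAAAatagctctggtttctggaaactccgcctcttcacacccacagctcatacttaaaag
Ifit1, chr19:34640729-34640888, plus strand: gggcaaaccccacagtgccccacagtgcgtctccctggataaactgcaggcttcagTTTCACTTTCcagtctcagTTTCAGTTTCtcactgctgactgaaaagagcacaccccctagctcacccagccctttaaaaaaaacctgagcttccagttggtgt
Ifit3, chr19:34583369-34583528, plus strand: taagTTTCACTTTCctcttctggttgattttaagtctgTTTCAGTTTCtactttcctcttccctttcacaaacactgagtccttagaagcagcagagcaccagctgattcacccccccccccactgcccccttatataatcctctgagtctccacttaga
Oas1a, chr5:120907526-120907685, minus strand: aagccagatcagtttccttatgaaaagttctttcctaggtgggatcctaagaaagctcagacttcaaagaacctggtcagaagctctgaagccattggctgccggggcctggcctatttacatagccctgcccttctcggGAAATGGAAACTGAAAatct
Ddx60, chr8:61927927-61928086, plus strand: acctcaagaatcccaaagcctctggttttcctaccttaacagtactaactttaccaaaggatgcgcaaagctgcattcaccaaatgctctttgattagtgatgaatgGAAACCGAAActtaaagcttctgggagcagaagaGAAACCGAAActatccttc
Rsad2, chr12:26456453-26456612, minus strand: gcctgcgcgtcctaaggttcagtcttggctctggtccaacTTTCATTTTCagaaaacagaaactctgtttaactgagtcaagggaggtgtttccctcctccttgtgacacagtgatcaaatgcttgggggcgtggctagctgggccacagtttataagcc
Mov10, chr3:104818306-104818465, minus strand: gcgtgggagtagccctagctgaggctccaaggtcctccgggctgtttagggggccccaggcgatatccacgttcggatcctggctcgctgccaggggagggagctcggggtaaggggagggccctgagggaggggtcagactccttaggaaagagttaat
Clec2h, chr6:128662225-128662384, plus strand: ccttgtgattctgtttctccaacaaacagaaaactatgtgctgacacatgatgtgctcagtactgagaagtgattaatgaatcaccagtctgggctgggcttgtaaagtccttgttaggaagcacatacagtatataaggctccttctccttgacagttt

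Isg15 had 3 overlapping matches, which began 78, 72, and 66 bases before the start. In Oas1a 2 overlapping matches began 20 and 14 bases before it. Ifit1, Ifit3, and Ddx60 had 2 separate matches each and Rsad2 a single one. Neither start of Mov10 had a match in its 300 bases, nor did Clec2h, which says only that these letters were not in these windows. In GENCODE on GRCm39, 18 members lay in 6 clusters with gaps of at most 100000 bases. The largest were the OAS genes Oas2, Oas3, Oas1h, Oas1g, and Oas1a at chr5:120868398-121046449 and the IFIT genes at chr19:34527932-34632174. Parp14, Dtx3l, and Parp9 were neighbours at chr16:35653231-35792980.

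The interferon-stimulated genes were on the whole higher in the cecum of mice fed RPS, by small amounts that few single genes carried past the threshold. With 10% RPS, 35 of the 39 estimates were higher than with 0% RPS, against 50.9% of all tested genes, and the median log2 fold change was 0.43, against 0.004 over all tested genes. With 5% RPS 36 of 39 were higher (49.5% of all genes) with a median of 0.47, and with 2% RPS 33 of 39 (51.0% of all genes) with a median of 0.23. The 3 comparisons share the 0% RPS mice, and the members were chosen with earlier results of these data known. Between 10 and 5% RPS, which share no mice, 19 members were higher and 20 lower (50.3% of all genes higher), and the median was -0.01. The diet with the highest mean log2 CPM was 5% RPS for 21 members, 10% for 17, and 0% for 1, and the lowest was 0% RPS for 34 members.

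**Figure D1:**
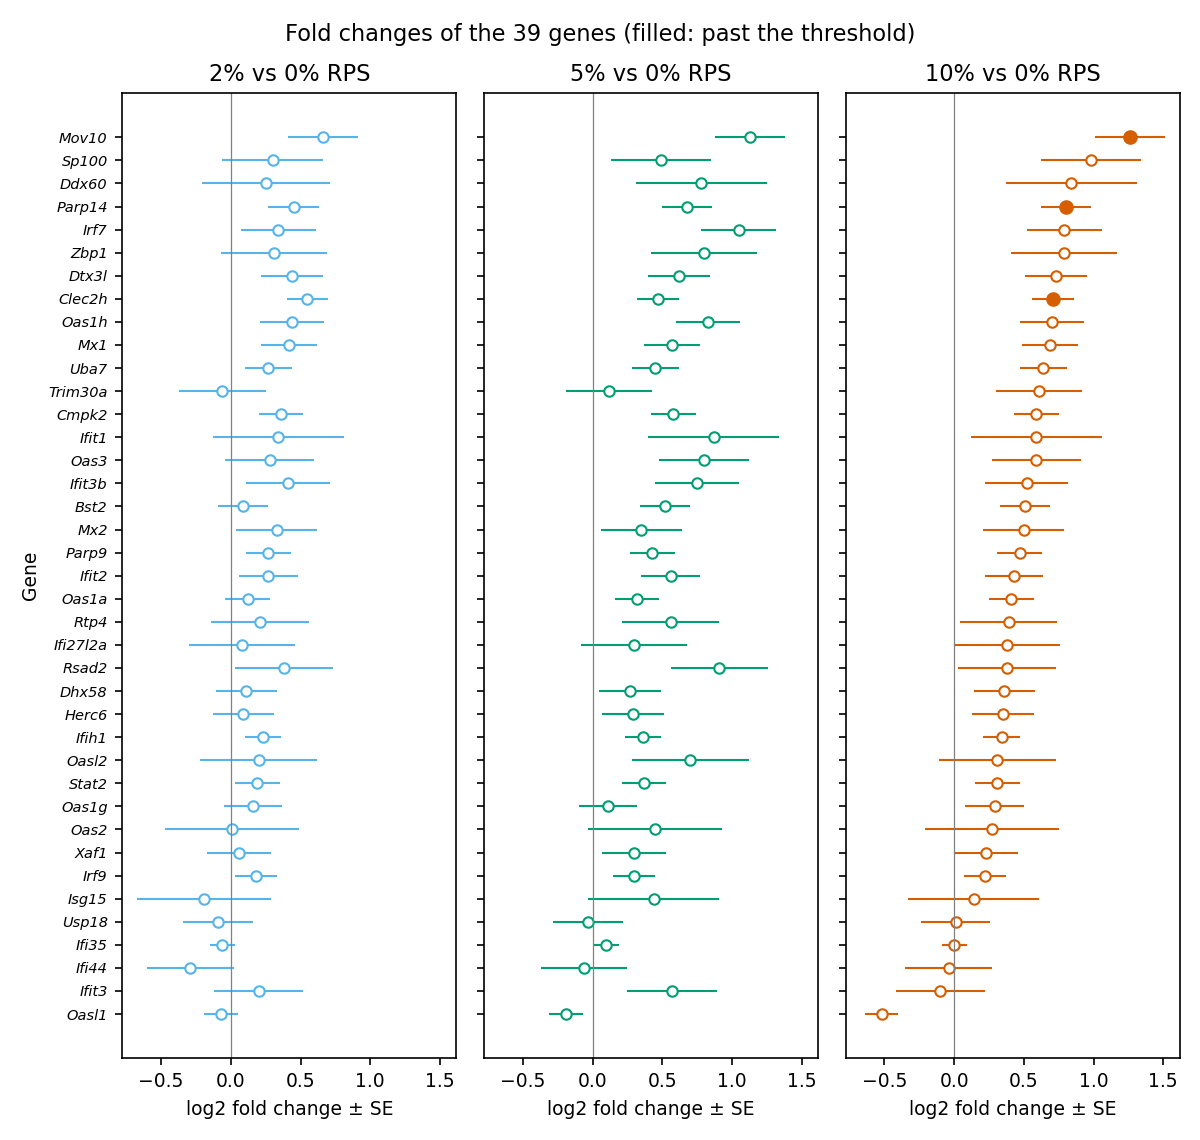
Log2 fold change (x axis, ± SE) of each of the 39 genes (y axis) with 2, 5, and 10% RPS against 0% RPS, 5 mice per diet. Filled points passed the threshold by edgeR: 3 genes with 10% RPS (Mov10, Parp14, and Clec2h) and none with 2 or 5%, and most points lie to the right of 0 on each diet.

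The threshold was an adjusted p (Benjamini-Hochberg, edgeR's quasi-likelihood test) of 0.05 or less together with a change of 1.5-fold or more. With 10% RPS, 3 members were past it and higher (7.69%), against 0.547% of all tested genes, and 0 were past it and lower, against 0.495%. These were Mov10, Clec2h, and Parp14. At an unadjusted p under 0.05, 14 members were higher (9.74% of all genes) and 1 was lower (9.75% of all genes). DESeq2's Wald test, whose shares of all genes are over the 18520 genes it tested, put 9 members past the threshold, all higher (1.16% of all genes), namely Mov10, Clec2h, Parp14, Irf7, Mx1, Oas1h, Cmpk2, Dtx3l, and Uba7, and 0 lower (0.837%). With 5% RPS edgeR put 0 members past the threshold, where 0.0977% of all genes were past it and higher and 0.0977% past it and lower. There 17 members were higher and 0 lower at an unadjusted p under 0.05 (6.74% of all genes were higher and 6.54% lower), and DESeq2 put 4 past it (0.783% of all genes), Irf7, Mov10, Oas1h, and Parp14. With 2% RPS edgeR put 0 members past the threshold, as it did 0.0% of all genes. At an unadjusted p under 0.05, 4 members were higher and 0 lower (2.58% of all genes were higher and 3.19% lower), and DESeq2 put 0 past it in either direction (0.0054% of all genes higher and 0.0216% lower). Between 10 and 5% RPS 0 members were past the threshold by edgeR (0.0% of all genes) and 0 by DESeq2, and 1, Oasl1, was lower at an unadjusted p under 0.05 (1.15% of all genes), with 0 members higher (1.64%).

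When level was fitted as a straight line on the dose of RPS in all 20 mice, with no limit on the fold change, 37 members had a positive slope (50.5% of all genes) and 2 a negative slope. One member was past the threshold upwards, Mov10, against 0.378% of all genes, and 1 downwards, Oasl1, against 0.73%. DESeq2 put 5 members past it upwards (1.59% of all genes) and 1 downwards (2.24%). At an unadjusted p under 0.05, 16 members had a positive slope (9.37% of all genes) and 1 a negative slope (9.47%).

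The mean over members showed how far the groups of mice lay apart. For each mouse a score was taken as the mean over the 39 genes of log2 CPM minus the mean of the 0% RPS mice. It was 0.0 ± 0.52 (SD, n = 5) with 0% RPS, 0.29 ± 0.20 with 2%, 0.57 ± 0.21 with 5%, and 0.50 ± 0.31 with 10%. The 0% RPS mice ranged from -0.66 to 0.53, the 2% mice from 0.01 to 0.49, the 5% mice from 0.29 to 0.80, and the 10% mice from 0.07 to 0.83, so that all 3 RPS diets overlapped the control diet. The control mice were split. Mouse 5 had the lowest value of all 20 mice in 28 of the 39 genes and mouse 3 in 6, whereas mouse 4 was the highest of its diet in 22 and mouse 2 in 14. Without mouse 5 the median log2 fold change with 10% RPS was 0.32 with 33 of 39 genes higher, and without mouse 4 it was 0.65 with 38 of 39 higher. For 5% RPS these medians were 0.36 and 0.58, and for 2% RPS 0.11 and 0.40. The mice fed 10% RPS were also uneven. Mice 1, 2, and 3 lay above every control mouse in 26, 22, and 21 genes, and mice 4 and 5 in 7 and 4.

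**Figure D2:**
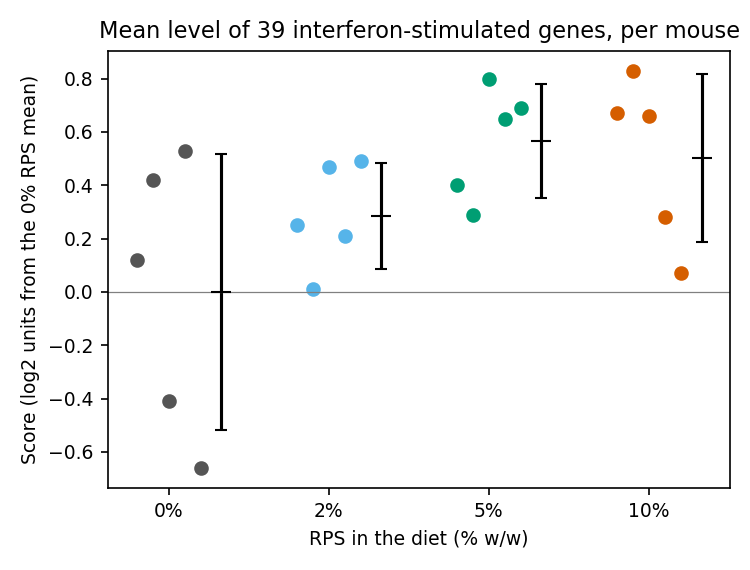
Score per mouse (y axis, mean over the 39 genes of log2 CPM minus the mean of the 0% RPS mice) against the RPS in the diet (x axis, % w/w), with points for mice and the mean ± SD (n = 5) in black. The 0% RPS mice span from -0.66 to 0.53 and overlap each RPS diet.

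**Figure D3:**
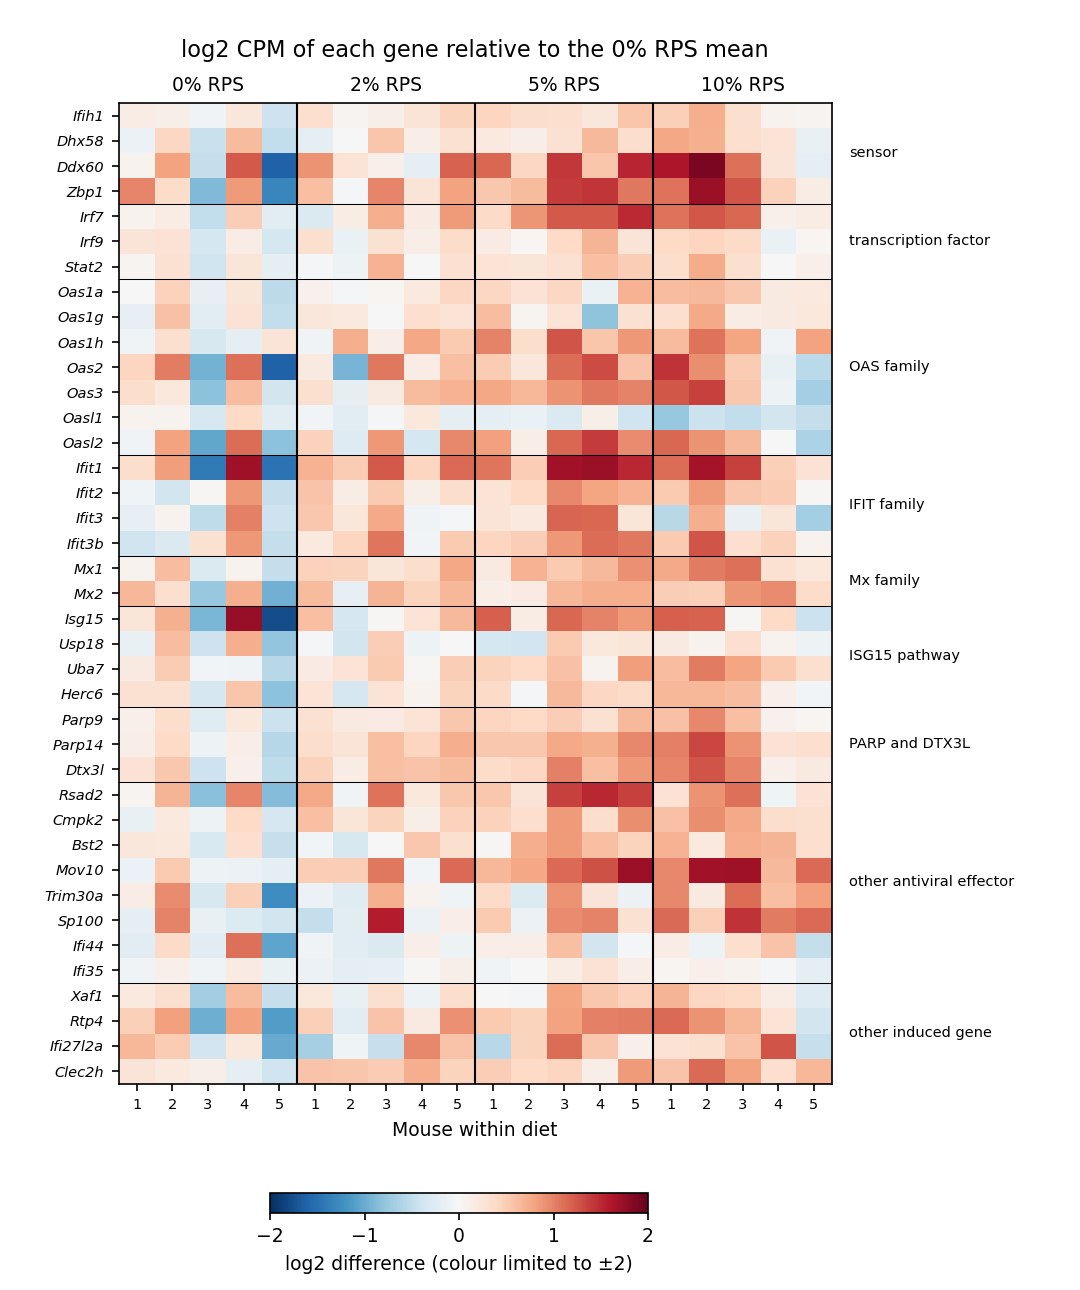
Log2 CPM of each of the 39 genes (rows, ordered by role) in each of the 20 mice (columns, by diet) minus the mean of the 0% RPS mice, with colour limited to 2 in either direction. Control mice 3 and 5 are low and control mice 2 and 4 are high across most roles, and mice 1, 2, and 3 fed 10% RPS are higher than mice 4 and 5.

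Mov10, an RNA helicase that restricts retroelements and some viruses, had the largest fold change of the members (ENSMUSG00000002227, chr3:104702140-104725879). Its level was 30.7, 47.5, 31.1, 30.5, and 29.2 CPM in the 0% RPS mice, 46.5, 46.9, 69.0, 31.9, and 72.5 with 2%, 52.5, 56.8, 73.0, 79.7, and 109 with 5%, and 64.9, 106, 108, 52.4, and 73.0 with 10%. Every mouse fed 5 or 10% RPS was above every control mouse, and the 2% mice overlapped the controls. Mov10 rose 2.39-fold with 10% RPS (log2 fold change 1.26, SE 0.25, edgeR adjusted p = 0.0251). With 5 and 2% RPS the log2 fold changes were 1.13 (edgeR adjusted p = 0.0597) and 0.66 (edgeR adjusted p = 0.815). Over the trend it rose by 1.15 on the log2 scale across 10% RPS (edgeR adjusted p = 0.0459), a call that was lost in 14 of the 20 fits with a mouse left out.

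Clec2h encodes a C-type lectin of the Clr family, whose members bind receptors of natural killer cells (ENSMUSG00000030364, chr6:128639343-128654340). It was at 384, 368, 349, 285, and 246 CPM in the control mice, 479, 474, 458, 533, and 439 with 2% RPS, 454, 426, 437, 353, and 585 with 5%, and 479, 703, 566, 408, and 513 with 10%. The mice fed 2 and 10% RPS were all above the controls, and a single mouse fed 5% overlapped them. Clec2h rose 1.63-fold with 10% RPS (log2 fold change 0.71, SE 0.15, edgeR adjusted p = 0.0251). Its log2 fold changes were 0.47 with 5% (edgeR adjusted p = 0.14) and 0.55 with 2% RPS (edgeR adjusted p = 0.712). Per exon length it was the most abundant member, with a mean of 475 TPM (scaled to exon length and library size), ahead of Irf7 at 136 TPM, and the median of the members was 7.94 TPM against 8.47 over all tested genes.

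With 10% RPS 2 members had every mouse above every control mouse, Mov10 and Clec2h (1.68% of all genes), and 1 had every mouse below, Oasl1 (3.2%). With 5% RPS there were 4 above, Oas1h, Oas3, Parp14, and Mov10 (1.53%), and 0 below (2.04%), and with 2% there was 1 above, Clec2h (0.417%), and 0 below (0.671%). Between 10 and 5% RPS there were 0 members above (0.254%) and 0 below (0.261%).

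**Figure D4:**
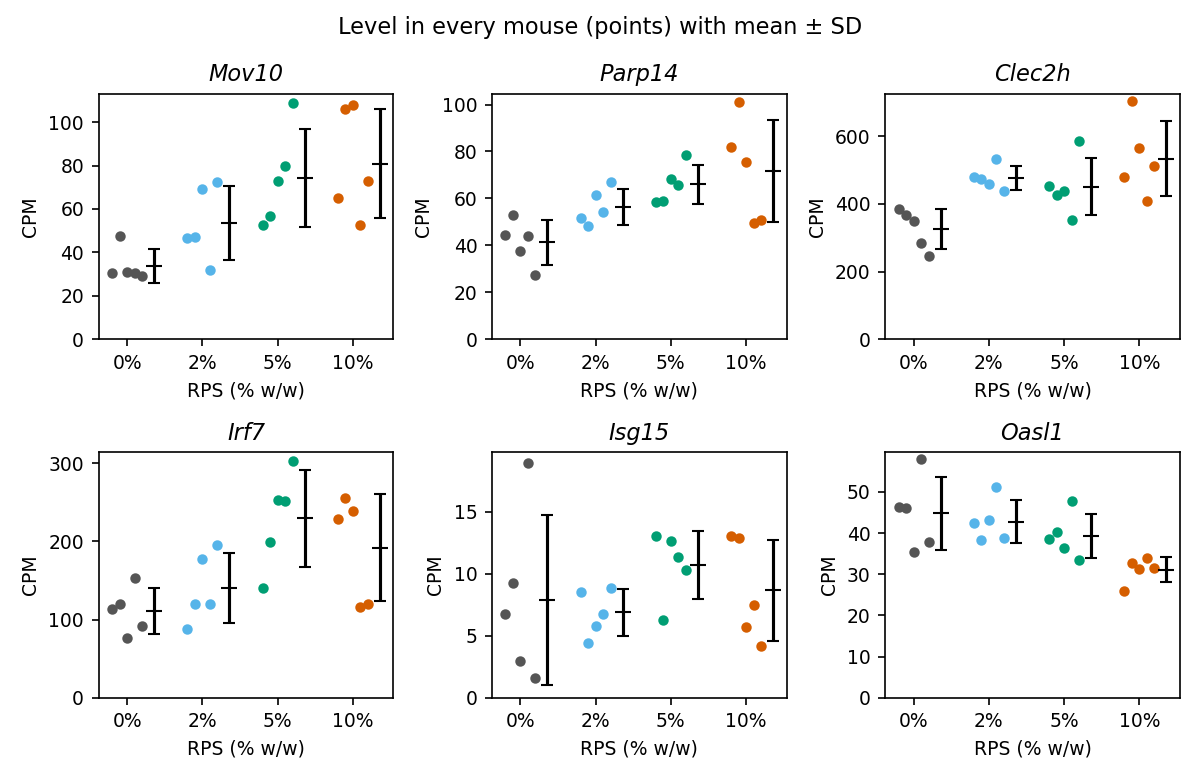
CPM (y axis) of 6 members in every mouse against the RPS in the diet (x axis, % w/w), with points for mice and the mean ± SD (n = 5) in black. Mov10 and Clec2h with 10% RPS lie above all controls, Oasl1 lies below them, and the Isg15 controls span from 1.61 to 18.9 CPM.

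Among the ADP-ribosyltransferase group, Parp14 modifies proteins with ADP-ribose, and Parp9 acts with the ubiquitin ligase Dtx3l. All 3 were higher at an unadjusted p under 0.05 with both 10 and 5% RPS (9.74 and 6.74% of all genes), with median log2 fold changes of 0.73 and 0.62. Parp14 was at 44.4, 53.1, 37.7, 44.1, and 27.2 CPM with 0% RPS, 51.6, 48.2, 61.3, 54.2, and 67.0 with 2%, 58.6, 58.8, 68.1, 65.9, and 78.4 with 5%, and 81.7, 101, 75.5, 49.4, and 50.9 with 10%. The 5% mice were all above the controls, and mice 4 and 5 fed 10% RPS were below the highest control. Parp14 rose 1.74-fold with 10% RPS (log2 fold change 0.80, SE 0.18, edgeR adjusted p = 0.0326). Its log2 fold change was 0.68 with 5% (edgeR adjusted p = 0.0922) and 0.45 with 2% RPS (edgeR adjusted p = 0.849). Parp9 was at 54.0, 64.5, 42.9, 58.6, and 37.4 CPM in the controls, 62.6, 57.4, 56.4, 60.7, and 73.0 with 2%, 67.8, 66.3, 71.1, 62.5, and 78.6 with 5%, and 76.0, 98.1, 76.6, 53.8, and 51.8 with 10% RPS. As for Parp14, mice 4 and 5 fed 10% RPS lay among the controls. With 10% RPS Parp9 had a log2 fold change of 0.47 (SE 0.16, edgeR adjusted p = 0.113) and Dtx3l one of 0.73 (SE 0.22, edgeR adjusted p = 0.0898). The genes of Parp9 and Dtx3l overlap on opposite strands over 682 bases, and whether strand was used in counting is not given in the sources used here. Larger overlaps of this kind with counted genes, introns included, were those of Oas1a with Oas1d (15380 bases) and Ifit1 with Ifit1bl2 (13904). So were those of Ifi27l2a with Ifi27 (7825), Ifi35 with Vat1 (3400), and Rtp4 with Masp1 (1969).

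Of the pathway's own transcription factors, Irf7, Irf9, and Stat2, all 3 had higher estimates with each RPS diet, and 0 of 3 passed the threshold by edgeR. Irf7, which drives the amplification of interferon alpha, was at 114, 120, 76.8, 153, and 91.5 CPM in the controls, 88.5, 120, 178, 120, and 195 with 2% RPS, 140, 199, 253, 252, and 303 with 5%, and 229, 256, 239, 116, and 120 with 10%. Mice 1 to 3 fed 10% RPS were above all controls, whereas mice 4 and 5 lay in the middle of the control range. Irf7 had a log2 fold change of 0.79 with 10% (SE 0.27, edgeR adjusted p = 0.123) and 1.05 with 5% RPS (SE 0.27, edgeR adjusted p = 0.087). DESeq2 put Irf7 past the threshold in both comparisons (DESeq2 adjusted p = 0.0431 and 0.0079). Stat2, which carries the interferon signal to the nucleus, was at 38.4, 45.6, 28.2, 43.5, and 32.0 CPM with 0%, 36.5, 34.5, 60.2, 36.9, and 45.7 with 2%, 45.0, 43.8, 45.5, 56.2, and 52.3 with 5%, and 47.5, 62.3, 46.2, 37.0, and 39.8 with 10% RPS. Its groups overlapped throughout, with a log2 fold change of 0.31 with 10% RPS (SE 0.16, edgeR adjusted p = 0.297).

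The 4 sensors were all higher with each RPS diet in their estimates, with medians of 0.57 with 10 and 5% and 0.24 with 2% RPS on the log2 scale, and 0 passed the threshold by edgeR or DESeq2. Ifih1 (MDA5), which detects long double-stranded RNA, was at 75.8, 75.0, 65.3, 80.8, and 51.5 CPM with 0%, 87.1, 71.5, 74.7, 81.9, and 94.4 with 2%, 92.6, 87.8, 86.7, 80.3, and 101 with 5%, and 95.8, 114, 86.4, 72.5, and 71.2 with 10% RPS. A single mouse fed 5% RPS, at 80.3 CPM, lay below the highest control. Ifih1 had a log2 fold change of 0.34 with 10% (SE 0.13, edgeR adjusted p = 0.16) and 0.36 with 5% RPS (edgeR adjusted p = 0.191). Zbp1, which detects Z-form nucleic acid, was at 9.89, 6.41, 2.66, 9.03, and 1.98 CPM with 0%, 7.59, 4.90, 9.92, 6.01, and 8.75 with 2%, 7.23, 7.74, 13.2, 13.5, and 10.5 with 5%, and 10.6, 16.6, 12.0, 6.88, and 5.55 with 10% RPS. Control mice 3 and 5 had the lowest values and the other controls overlapped the RPS diets. Its log2 fold change with 10% RPS was 0.79 (SE 0.38, edgeR adjusted p = 0.262). Ddx60 had the widest range of the sensors, with 0.84 (SE 0.47, edgeR adjusted p = 0.327), and Dhx58, a regulator of the RNA sensors, had 0.36 (edgeR adjusted p = 0.369).

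Active enzymes of the OAS family make the 2',5'-linked oligoadenylates that activate RNase L, and the activity of the members was not measured. With 10% RPS, 6 of the 7 members of this family had higher estimates (50.9% of all genes), and Oasl1 was lower. Oas1a and Oas1h were higher at an unadjusted p under 0.05 (9.74% of all genes) and Oasl1 was lower (9.75%). Oas1a was at 34.9, 48.4, 31.2, 41.5, and 24.4 CPM with 0%, 37.5, 34.4, 36.2, 40.3, and 46.8 with 2%, 46.7, 43.1, 46.8, 32.1, and 57.0 with 5%, and 53.6, 55.3, 51.2, 39.5, and 40.5 with 10% RPS. Oas3 was at 31.4, 28.5, 13.8, 37.6, and 18.9 CPM with 0%, 30.6, 21.5, 27.7, 38.0, and 39.9 with 2%, 42.3, 38.8, 45.9, 50.9, and 49.2 with 5%, and 58.0, 63.3, 35.7, 22.9, and 15.2 with 10% RPS. The 5% mice were all above the controls for Oas3, and the 10% mice spread from the lower end of the controls to above all mice of the other diets. The log2 fold change with 10% RPS was 0.41 (edgeR adjusted p = 0.172) for Oas1a, 0.70 (edgeR adjusted p = 0.103) for Oas1h, and 0.59 (edgeR adjusted p = 0.327) for Oas3. For Oas3 it was 0.34 without mouse 2 and 0.8 without mouse 5 fed 10% RPS. Oas2 was at 6.25, 9.44, 2.36, 9.97, and 1.46 CPM with 0%, 5.21, 2.40, 9.68, 5.11, and 7.05 with 2%, 6.60, 5.38, 10.0, 11.5, and 6.88 with 5%, and 12.6, 8.85, 6.60, 4.15, and 3.15 with 10% RPS. Its spread within diets, 0.85 on the log2 scale, was the widest of the members, and its log2 fold change was 0.27 (SE 0.48, edgeR adjusted p = 0.802). Of the 50-base windows of Oas1g, 48.7% also occur in another gene, mostly Oas1a, so the division of reads between these copies is uncertain.

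Oasl1, known to hold back the translation of Irf7, went the other way from the rest of the family. It was at 46.3, 46.1, 35.5, 58.1, and 37.9 CPM with 0%, 42.4, 38.3, 43.1, 51.2, and 38.8 with 2%, 38.7, 40.3, 36.3, 47.8, and 33.4 with 5%, and 25.9, 32.8, 31.4, 34.0, and 31.6 with 10% RPS. Every mouse fed 10% RPS was below every control. The log2 fold change was -0.52 (SE 0.12, edgeR adjusted p = 0.0353), which was significant but short of the 1.5-fold limit. In the trend Oasl1 fell by 0.53 on the log2 scale across 10% RPS (edgeR adjusted p = 0.0333). With 5 and 2% RPS the log2 fold changes were -0.19 (edgeR adjusted p = 0.561) and -0.07 (edgeR adjusted p = 0.982). Its neighbour Oasl2 had 0.31 with 10% RPS (SE 0.42, edgeR adjusted p = 0.729).

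The IFIT proteins bind viral RNA and block its translation. All 4 had higher estimates with 5% RPS, with a median log2 fold change of 0.66, and 3 of 4 with 10% RPS, with a median of 0.47. Ifit2 and Ifit3b were higher at an unadjusted p under 0.05 with 5% RPS (6.74% of all genes), and 0 of 4 were with 10% (9.74%). Ifit1 was at 9.37, 13.1, 2.70, 23.9, and 2.58 CPM with 0%, 11.9, 10.4, 17.2, 9.84, and 16.0 with 2%, 15.5, 10.3, 23.7, 24.4, and 20.9 with 5%, and 16.0, 23.4, 18.9, 10.2, and 8.93 with 10% RPS. Control mouse 4 lay among the highest mice fed RPS, and control mice 3 and 5 were below all of them. Ifit1 had a log2 fold change of 0.59 with 10% (SE 0.47, edgeR adjusted p = 0.519) and 0.87 with 5% RPS (edgeR adjusted p = 0.452). With 10% RPS it was 0.35 without control mouse 3 and 1.17 without control mouse 4. Ifit3 was at 2.99, 3.50, 2.33, 6.75, and 2.50 CPM with 0%, 4.87, 3.90, 5.69, 3.15, and 3.26 with 2%, 4.03, 3.86, 7.55, 7.46, and 3.96 with 5%, and 2.27, 5.55, 3.00, 3.96, and 2.06 with 10% RPS. It had a log2 fold change of -0.10 with 10% (edgeR adjusted p = 0.903) and 0.57 with 5% RPS (edgeR adjusted p = 0.469). Of the windows of Ifit3b 48.0% and of Ifit3 31.7% also occur in another gene, mostly in each other.

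Isg15 is a ubiquitin-like modifier, Uba7 the enzyme that activates it, Herc6 a ligase, and Usp18 the protease that removes it and restrains the receptor. This group had the lowest median log2 fold change of the 9 roles, 0.25 with 10% RPS, with 0 of 4 past the threshold by edgeR and 1, Uba7, by DESeq2. Isg15 was at 6.71, 9.24, 2.96, 18.9, and 1.61 CPM with 0%, 8.56, 4.45, 5.75, 6.78, and 8.87 with 2%, 13.0, 6.25, 12.6, 11.3, and 10.3 with 5%, and 13.0, 12.9, 5.72, 7.44, and 4.20 with 10% RPS. The controls hold both the highest and the lowest value of all 20 mice. Isg15 had a log2 fold change of 0.14 with 10% RPS (SE 0.47, edgeR adjusted p = 0.906). Without control mouse 4 it was 0.78, and without control mouse 5 it was -0.11. Usp18 was at 4.95, 8.44, 4.09, 9.13, and 3.16 CPM with 0%, 5.35, 4.21, 7.73, 5.11, and 5.52 with 2%, 4.27, 4.20, 7.93, 6.39, and 6.50 with 5%, and 6.24, 5.78, 6.95, 5.75, and 5.14 with 10% RPS. The 10% mice lay within the control range, with a log2 fold change of 0.01 (SE 0.25, edgeR adjusted p = 0.994). Uba7 had a log2 fold change of 0.64 (SE 0.17, edgeR adjusted p = 0.0586, DESeq2 adjusted p = 0.013), the largest of the group.

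As a family, the Mx proteins are known as GTPases that trap viral particles. Whether these mice make working forms was not measured. Mx1 was at 6.48, 9.44, 5.03, 6.45, and 4.39 CPM with 0%, 8.47, 8.38, 7.25, 7.88, and 10.5 with 2%, 7.01, 10.0, 8.82, 9.72, and 11.6 with 5%, and 10.4, 12.7, 13.2, 7.59, and 7.09 with 10% RPS. Apart from mouse 2, the controls lay below all mice fed RPS. The log2 fold change with 10% RPS was 0.69 (SE 0.20, edgeR adjusted p = 0.0782, DESeq2 adjusted p = 0.0243) for Mx1 and 0.50 (edgeR adjusted p = 0.352) for Mx2.

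The 8 other antiviral effectors had a median log2 fold change of 0.55 with 10% RPS, and besides Mov10 none passed the threshold by edgeR and Cmpk2 did by DESeq2. Bst2 (tetherin), which holds budding virions at the cell surface, was at 14.5, 14.4, 10.1, 15.6, and 9.01 CPM with 0%, 11.9, 9.95, 12.3, 18.1, and 15.5 with 2%, 12.7, 20.5, 22.3, 18.9, and 17.0 with 5%, and 20.3, 14.3, 20.5, 19.9, and 15.6 with 10% RPS. The highest control exceeded a single mouse fed 5% RPS, and in the 10% diet it equalled or exceeded the 2 lowest mice. The log2 fold change was 0.51 with 10% (SE 0.18, edgeR adjusted p = 0.14) and 0.52 with 5% RPS (edgeR adjusted p = 0.19). Rsad2 (viperin), which makes a chain-terminating nucleotide, was at 3.74, 5.77, 1.99, 7.15, and 1.95 CPM with 0%, 6.13, 3.44, 7.70, 4.18, and 5.26 with 2%, 5.26, 4.32, 9.45, 10.4, and 9.42 with 5%, and 4.39, 6.74, 7.84, 3.39, and 4.39 with 10% RPS. Its log2 fold change was 0.38 with 10% (edgeR adjusted p = 0.585) and 0.91 with 5% RPS (edgeR adjusted p = 0.246). With 10% RPS it was 0.21 without control mouse 3 and 0.69 without control mouse 4. Cmpk2, the mitochondrial nucleotide kinase next to Rsad2 on chromosome 12, had 0.59 with 10% (SE 0.16, edgeR adjusted p = 0.066) and 0.58 with 5% RPS (edgeR adjusted p = 0.0997). Ifi35 and Ifi44 had -0.00 and -0.04 with 10% RPS.

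Of the other induced genes, Xaf1, which binds the apoptosis inhibitor XIAP, was at 10.2, 11.1, 5.48, 13.8, and 6.43 CPM with 0%, 10.3, 8.0, 11.1, 8.33, and 11.4 with 2%, 8.90, 8.64, 15.4, 13.1, and 12.2 with 5%, and 14.2, 11.9, 11.7, 9.89, and 7.39 with 10% RPS. Ifi27l2a, a small interferon-induced membrane protein, was at 15.8, 14.2, 7.58, 11.4, and 4.91 CPM with 0%, 6.23, 9.32, 7.16, 19.2, and 14.7 with 2%, 6.69, 13.5, 21.4, 14.5, and 10.6 with 5%, and 12.1, 12.3, 14.8, 23.8, and 7.16 with 10% RPS. The diets overlapped for both, with log2 fold changes of 0.23 (edgeR adjusted p = 0.62) and 0.38 (edgeR adjusted p = 0.624) with 10% RPS. With a mouse left out these ranged from 0.09 to 0.42 for Xaf1 and from 0.12 to 0.56 for Ifi27l2a. Rtp4 had 0.39 with 10% RPS (edgeR adjusted p = 0.575), and 25.7% of its windows also occur in Gm45338.

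The members varied more from mouse to mouse on the same diet than most genes. Their median SD within diets was 0.39 on the log2 scale, from 0.13 for Ifi35 to 0.85 for Oas2, against a median of 0.24 over all tested genes. The median SE of the log2 fold change was 0.23 for the members and 0.15 for all tested genes. The 13 members with an ISRE match in the promoter had a median SD of 0.52, and the 16 without one had 0.38. Their median log2 fold changes were 0.41 and 0.51 with 10% RPS, and 0.52 and 0.48 with 5%.

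**Figure D5:**
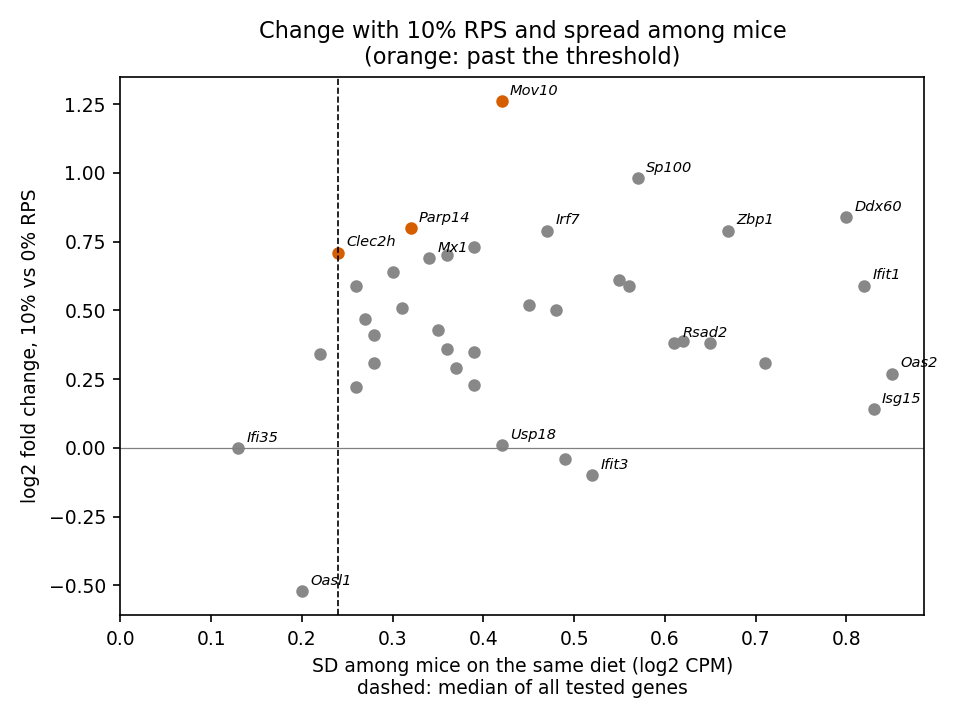
Log2 fold change with 10 against 0% RPS (y axis) of the 39 members against their SD among mice on the same diet in log2 CPM (x axis), with the median SD of all tested genes, 0.24, as a dashed line. The SDs run from 0.13 for Ifi35 to 0.85 for Oas2, and the 3 genes past the threshold are in orange.

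Of the interferon ligands listed, 5 of 18 of type 1, 1 of 1 of type 2, and 1 of 2 of type 3 were in the table, and the others were not analysed here. Of the type 1 ligands in the table, Ifna6 and Ifnk had 0 counts in all mice, Ifnb1 and Ifna2 had 2 counts in a single mouse each, and Ifnz had 7 counts in 3 mice. Ifng, the type 2 interferon, had 18 counts in 10 mice, and the type 3 ligand Ifnl3 had 0. A count of 0 allows up to 3 counts per library, or between 0.0703 and 0.20 CPM, by counting error alone. The receptor chains were present, Ifnar1 at 44.5 ± 2.20 CPM with 0% and 48.3 ± 2.53 with 10% RPS (SD, n = 5) and Ifnar2 at 2.83 ± 0.709 and 3.50 ± 0.472. Of 6 interferon receptor chains, 3 had higher estimates with 10% RPS (50.9% of all genes) and 0 passed the threshold by edgeR. Of these chains, 0 were higher at an unadjusted p under 0.05 (9.74% of all genes). A single chain was lower (9.75%), Il10rb (log2 fold change -0.15, edgeR adjusted p = 0.205). For Ifnar1 and Ifnar2 the log2 fold changes were 0.11 (edgeR adjusted p = 0.375) and 0.30 (edgeR adjusted p = 0.55).

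Of 60 other interferon-stimulated genes, 54 were tested. With 10% RPS 46 of the 54 had higher estimates (50.9% of all tested genes), and the median log2 fold change was 0.28. At an unadjusted p under 0.05, 15 were higher (9.74% of all genes) and 2 lower (9.75%). With 5% RPS 38 had higher estimates (49.5% of all genes) and the median was 0.18, and with 2% RPS 40 had (51.0%) and the median was 0.12. None of them rose past the threshold in these comparisons by edgeR, and Plscr1, a phospholipid scramblase, fell with 10% RPS from 317 ± 60.2 to 199 ± 28.1 CPM (SD, n = 5), a log2 fold change of -0.68 (SE 0.17, edgeR adjusted p = 0.041). Of the 14 genes that act in sensing upstream of interferon, 13 had higher estimates with 10% RPS, and at an unadjusted p under 0.05 3 were higher and 1 lower, beside the same shares of all genes. The lower gene, Ticam1, the adaptor of Toll-like receptor 3, was at 66.4 ± 10.4 CPM with 0% and 48.3 ± 4.98 with 10% RPS (SD, n = 5) and fell in the trend (edgeR adjusted p = 0.0445). Among 11 signal transducers 8 had higher estimates with 10% RPS (50.9% of all genes). At an unadjusted p under 0.05, 4 were higher (9.74% of all genes) and 0 lower (9.75%).

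Markers of other cells of the section moved beside the members. The 8 B cell markers were all higher with 10% RPS in their estimates (50.9% of all genes), with a median log2 fold change of 2.04. At an unadjusted p under 0.05, 0 were higher (9.74% of all genes). Their summed level was between 6.5 and 250 CPM with 0%, 4.18 and 406 with 2%, 9.38 and 171 with 5%, and 17.6 and 364 with 10% RPS. Sp100, a nuclear body protein, and Trim30a were members singled out after their values were seen. Sp100 was at 14.6, 33.1, 15, 13.8, and 12.9 CPM with 0%, 12.0, 14.4, 49.8, 15.3, and 18.3 with 2%, 23.8, 15.3, 32.2, 33.4, and 20.6 with 5%, and 36.3, 23.2, 45.4, 34.4, and 36.7 with 10% RPS. The B cell sums of the same mice were 38.7, 250, 7.03, 24.0, and 6.5 CPM, then 7.61, 4.18, 406, 50.7, and 11.9, then 90.2, 9.38, 157, 171, and 10.5, and then 286, 17.6, 364, 290, and 342. The median of these sums was 24.0 CPM with 0% and 290 with 10% RPS. A fit with this sum therefore cannot tell B cell content and diet apart. With the B cell sum as a covariate the log2 fold change with 10% RPS was 0.38 for Sp100 in place of 0.98, and 0.12 for Trim30a in place of 0.61. Over all 39 members the median was 0.35 in place of 0.43, with 33 in place of 35 higher in their estimates and 13 in place of 14 higher at an unadjusted p under 0.05. With the same covariate Mov10 had 1.23 (edgeR adjusted p = 0.041), Clec2h 0.76 (edgeR adjusted p = 0.0297), and Parp14 0.78 (edgeR adjusted p = 0.0541), so that Parp14 was no longer past the threshold.

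Of all tested genes, 9.74% were higher and 9.75% lower at an unadjusted p under 0.05 with 10% RPS, and 6.74% were higher with 5%. Higher estimates with 10% RPS were found for 50.9% of them. Beside these shares, 4 of 6 smooth muscle markers were higher at an unadjusted p under 0.05 with 10% RPS and 6 of 6 with 5%. Actg2 rose in both (log2 fold changes 1.28 and 1.53, edgeR adjusted p = 0.0358 and 0.0425). Their summed level was between 2420 and 5730 CPM with 0%, 4130 and 9760 with 5%, and 3980 and 6740 with 10% RPS, and the median log2 fold changes were 0.91 with 5% and 0.69 with 10% RPS. Goblet cell markers were lower at an unadjusted p under 0.05 in 4 of 5 with 10% RPS, and Zg16 fell (log2 fold change -0.84, edgeR adjusted p = 0.0251). The sums of the 8 epithelial markers were between 33200 and 40000 CPM with 0% and 23800 and 38400 with 10% RPS. Car1, a carbonic anhydrase, made up most of this sum, at 25100 ± 2320 CPM with 0% and 18700 ± 4000 with 10% RPS (SD, n = 5). At an unadjusted p under 0.05 2 of the 8 were lower and 1 higher, Slc26a3, a chloride and bicarbonate exchanger, which rose (log2 fold change 0.61, edgeR adjusted p = 0.0487). Among markers of plasmacytoid dendritic cells, the main makers of type 1 interferon, 4 of 6 tested had higher estimates with 10% RPS, with 1 higher and 1 lower at an unadjusted p under 0.05. Their sums were between 180 and 247 CPM with 0% and 177 and 215 with 10% RPS, most of it Klk1, at 162 ± 25.0 CPM with 0% and 133 ± 9.01 with 10% RPS (SD, n = 5). Siglech, the defining marker, was at 0.883 ± 0.667 CPM with 0% and 1.70 ± 0.80 with 10% RPS (log2 fold change 0.94, edgeR adjusted p = 0.383). The 6 markers of conventional dendritic cells all had higher estimates with 10% RPS, with a median log2 fold change of 0.47, 2 higher and 0 lower at an unadjusted p under 0.05, and sums between 14.5 and 26.5 CPM with 0% and 19.5 and 31.6 with 10% RPS. The 7 macrophage markers were all higher in their estimates, with 0 at an unadjusted p under 0.05 and sums between 81.2 and 130 CPM with 0% and 103 and 133 with 10% RPS. The part of B, smooth muscle, goblet, epithelial, and myeloid cells in the changes of the members was not tested.

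The number of genes past the threshold moved with the mice fitted, among all genes as among the members. With 10% RPS, 3 members and 84 of all genes were past it and higher. The count of members was 0 without control mouse 3, 4, or 5 (9, 15, and 18 of all genes) or without mouse 1, 2, or 3 fed 10% RPS (8, 16, and 4 of all genes). It was 8 without control mouse 2 (233 of all genes) or without mouse 4 fed 10% RPS (163), and 5 without mouse 3 fed 2% RPS (134). Over the 20 fits with a mouse left out the log2 fold change of Mov10 was between 1.14 and 1.41, that of Clec2h between 0.59 and 0.80, and that of Parp14 between 0.64 and 0.92.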

How the data were processed

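Total RNA from cecum was made into stranded poly(A) libraries and sequenced with single-end reads of 50 bases. Reads were trimmed for quality, mapped to GRCm39, and counted by the authors in the CLC Genomics Workbench, and the deposited table holds raw counts per gene and mouse. The annotation release, strand setting, and handling of multi-mapping reads are not given in the sources used here, which matters for the OAS and IFIT copies. Diets were taken from the labels. Gene names and positions came from GENCODE M39 on GRCm39 (19827 of 19887 identifiers found), and promoters from RefSeq on GRCm38.p6.

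The test was edgeR 4.0.16 in R 4.3.3 (filterByExpr with minimum count 10 and minimum total 15, TMM, robust quasi-likelihood fit of all 4 diets), with DESeq2 1.42.0, limma 3.58.1, and sva 3.50.0 for alternatives, and in Python 3.11.15 with pandas 2.3.3 and matplotlib 3.10.9. Adjusted p-values are Benjamini-Hochberg values, over 15348 genes for edgeR and after its independent filtering for DESeq2, which tested 18520 genes (18510 for the trend). A call needed an adjusted p of at most 0.05 and a 1.5-fold change (no fold limit for the trend). SE values came from the fold change and the F statistic. Log2 CPM used a prior count of 2, and TPM used GENCODE exon length. The code was also run on simulated counts, and no result given here rests on that run. Fits with other scaling, filters, covariates, and each mouse left out were also made.

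Depth was between 14967798 and 42687283 counts per mouse, and 3 counts, the limit that a count of 0 allows, were at most 0.20 CPM. Such limits cover counting error only. Values were given in every mouse for members fixed by name (Irf7, Stat2, Ifih1, Zbp1, Mx1, Oas1a, Oas2, Oas3, Ifit1, Ifit3, Isg15, Usp18, Rsad2, Bst2, Xaf1, Parp9, Clec2h, and Ifi27l2a) and for every other member past the threshold by edgeR in any comparison, and mean ± SD or counts for Ifnar1, Ifnar2, the ligands in the table, and pathway genes past the threshold. The members and lists were chosen with earlier results of these data known. A gene of the pathway lists is not reported here. The marker lists for T and NK cells, plasma cells, neutrophils, endothelium, and enteric neurons and glia, with 0, 1, 1, 1, and 0 genes lower and 0 higher at an unadjusted p under 0.05 with 10% RPS, were also computed. By the same measure 9.75% of all genes were lower and 9.74% higher.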

Additional observations from a re-analysis of the deposited data

Results flagged for a closer look

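The values of the 39 genes and the score on each of 4 diets gave 160 sets of 5 mice, and in 7 of them, all of member genes, a single mouse lay far from the other 4. Chance alone marks about 1 in 20 such sets. In control mouse 4, Ifit2 was at 11.7 CPM (others from 4.62 to 6.49) and Ifit3 at 6.75 CPM (2.33 to 3.50). In control mouse 2, Mov10 was at 47.5 CPM (29.2 to 31.1) and Sp100 at 33.1 CPM (12.9 to 15). In mouse 3 fed 2% RPS, Sp100 was at 49.8 CPM (12.0 to 18.3) and Trim30a at 12.1 CPM (6.23 to 7.78). In mouse 2 fed 10% RPS, Oas1g was at 29.7 CPM (19.5 to 22.1). The B cell marker sum was 250 CPM in control mouse 2 and 406 CPM in mouse 3 fed 2% RPS, the highest of their diets.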

How the results depend on the processing

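The number of members past the threshold and higher with 10% RPS was 3 (84 of all genes), and 9 with DESeq2's Wald test (214), 6 with 1 surrogate variable (238), 1 (Mov10) when only the diets compared were fitted (41), and from 0 to 8 with a mouse left out (4 to 233). The number lower was 0 (76 of all genes), and 1 (Oasl1) with the B cell covariate (36) or without the fold limit (175), and from 0 to 1 with a mouse left out (10 to 139). With 5% RPS the number higher was 0 (15 of all genes), and 4 with DESeq2 (145), 2 with 1 surrogate variable (102), 1 (Mov10) with at least 10 counts in every mouse, without robust estimation, with the B cell covariate, or with only the diets compared (19 to 52 of all genes), and from 0 to 2 with a mouse left out (0 to 72 of all genes, and for the members 2 without mouse 1 fed 5% RPS, and 1 without mouse 4 fed 10% or mouse 4 or 5 fed 2% RPS). In the trend the number upwards was 1 (58 of all genes), and 5 with DESeq2 (295) or the rank of the dose (203), 7 with 1 surrogate variable (537), 0 with no filter (37) or the B cell covariate (50), and from 0 to 7 with a mouse left out (0 to 378). Mov10 stayed past the threshold in the trend without control mouse 2, mouse 4 fed 10%, mouse 3 or 5 fed 2%, or mouse 4 or 5 fed 5% RPS, and not without any of the others, while its log2 fold change with 10% RPS was between 1.14 and 1.41 with a mouse left out. The number downwards was 1 (112 of all genes), and from 0 to 1 with a mouse left out (0 to 322), and 0 without control mouse 1, 4, or 5, mouse 1, 3, or 5 fed 10%, or mouse 4 fed 2% RPS. The causes were not tested. With 2% RPS, and between 10 and 5%, the number was 0 in the fits run. Of 609 gene values under alternatives, 579 kept their side of the threshold, 22 lost it, 8 gained it, and 0 called values reversed. Over 29 fits of 10 against 0% RPS the signs of Ifit3, Isg15, Usp18, Oas2, Ifi44, and Ifi35, none of them past the threshold, differed between fits. The score differences from 0% RPS, 0.29 with 2%, 0.57 with 5%, and 0.50 with 10% RPS, ranged with a mouse left out from 0.12 to 0.42, 0.40 to 0.70, and 0.34 to 0.63, lowest without control mouse 5 and highest without control mouse 4. No paired analysis was possible because no mouse number in the labels occurs on more than a single diet.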
